A study of Mus musculus with 8 samples.

Results

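Mast cells and basophils are described here through 8 genes that mark them: Cpa3, Ms4a2, Fcer1a, Mcpt8, Hdc, Prss34, Gzmb and Cma1. Every probe set that the platform annotation gave to exactly 1 of these genes was taken, dim ones included, which gave 9 probe sets for 7 of the 18193 genes that had one, in a table of 45101 probe sets. Ms4a2 and Hdc had a pair of probe sets each, and Cpa3, Fcer1a, Mcpt8, Gzmb and Cma1 had 1 each. No probe set of Prss34 was found in that annotation, so its level was not analysed here. The RNA came from bone marrow multipotent progenitors of female C57BL6 mice aged 8 to 10 weeks, sorted by the presence of c-Kit, Sca-1 and CD48 and the absence of lineage markers and CD150. Mice were either wild type or FLT3-ITD, the latter with a repeated stretch inside the gene for FLT3, a receptor tyrosine kinase (an internal tandem duplication); the labels do not say how the allele was made or whether 1 or both copies carried it. Each genotype had 4 samples with 1 array each, labelled 1, 2, 3 and a further 1 with the tag 037, called replicate 037 here, which may repeat replicate 1. Whether the replicates are separate mice is not stated in the labels; p-values then describe the spread among these 8 samples, part of which may be technical.

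Mast cells and basophils are granulated cells that arise from bone marrow progenitors and release histamine and proteases when IgE bound to their surface meets its antigen. The high-affinity IgE receptor has an alpha chain that binds IgE, encoded by Fcer1a, a beta chain that amplifies the signal, encoded by Ms4a2, and a gamma chain shared with other Fc receptors, encoded by Fcer1g. The granules hold histamine, made by the histidine decarboxylase Hdc, and proteases such as the carboxypeptidase Cpa3, the chymase Cma1, the basophil protease Mcpt8 and the basophil tryptase Prss34. Cpa3 is also transcribed in progenitors before they commit to these lineages. Gzmb encodes granzyme B, best known from cytotoxic lymphocytes and also made by mast cells.

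Of the 9 probe sets, 1 passed the test between genotypes: Cpa3 fell in FLT3-ITD to less than its lowest wild type level in every sample. Mcpt8 read higher in FLT3-ITD without passing. Fcer1a and both Ms4a2 probe sets, for the alpha and beta chains of the IgE receptor, lay below the array median in every sample. Cpa3 itself and both Hdc probe sets did too. The promoters of Cpa3, the member that passed, and of Mcpt8, whose difference had the opposite sign and the next smallest p, are therefore shown first. Each is a RefSeq promoter window of 250 bases, read on the minus strand of GRCm38.p6, at chr3:20242182-20242431 for Cpa3 and chr14:56085198-56085447 for Mcpt8. On that strand the RefSeq gene spans begin at 20242209 for Cpa3 and 56085499 for Mcpt8. By the RefSeq spans the Cpa3, Ms4a2 and Fcer1a windows overlap their genes in part, and the Mcpt8 and Hdc windows lie inside theirs. Capitals mark GATAA or its complement TTATC, the core letters that GATA factors bind.
Cpa3 promoter: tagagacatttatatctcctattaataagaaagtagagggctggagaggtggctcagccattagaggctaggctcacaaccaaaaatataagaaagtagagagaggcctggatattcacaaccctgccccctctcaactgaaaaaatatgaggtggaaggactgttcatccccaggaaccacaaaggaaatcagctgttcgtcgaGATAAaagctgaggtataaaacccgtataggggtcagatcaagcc
Mcpt8 promoter: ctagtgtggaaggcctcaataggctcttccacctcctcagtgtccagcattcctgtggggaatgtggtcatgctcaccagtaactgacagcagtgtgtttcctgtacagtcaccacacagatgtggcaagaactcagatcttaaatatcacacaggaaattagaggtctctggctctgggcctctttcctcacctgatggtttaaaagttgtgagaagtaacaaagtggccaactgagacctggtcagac
The Cpa3 window held 1 such match, starting at base 206 of the 250, and the Mcpt8 window held none. Among the 8 member promoters, 5 held GATAA on either strand (Cpa3, Ms4a2, Fcer1a, Prss34 and Cma1), against 22.6% of 32851 RefSeq promoter windows of the same length. TTCNNNGAA, the letters of a STAT site, which read the same on both strands, were found in none of the 8, against 7.02% of all windows. CANNTG, the E-box, also the same on both strands, was in 7 of the 8, all but Ms4a2, against 66.2% of all windows. None of these matches in the Cpa3 window overlapped another. A match or its absence describes these letters and says nothing of binding.

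Cpa3 (probe set 1448730_at) encodes the mast cell carboxypeptidase. On the log2 scale its wild type level was 5.43 in replicate 1, 5.52 in replicate 2, 5.26 in replicate 3 and 5.88 in replicate 037. The FLT3-ITD levels were 4.55, 4.42, 4.18 and 4.52 in the same order of labels. The highest FLT3-ITD sample lay 0.71 below the lowest wild type sample, so the genotypes did not overlap. The 4 wild type samples averaged 5.52 ± 0.26 and the 4 FLT3-ITD samples 4.42 ± 0.17 (SD, n = 4 each). The difference was −1.10 ± 0.16 (SE; 95% interval −1.46 to −0.74), or 2.15-fold lower. It passed by a narrow margin, with a limma adjusted p of 0.0489 over 34945 probe sets with a single gene. The exact two-sided permutation p was 0.0286, the smallest that 4 samples against 4 can give. It was not adjusted and follows from the lack of overlap alone, so it adds nothing to that statement. Over all these probe sets 0.157% passed in either direction and 0.0200% were lower, and 54 had a smaller p than Cpa3. Groups without overlap were more common, at 5.24% in either direction and 2.17% lower. Removing any 1 of the 8 samples ended the call, with differences of −1.19 to −0.98 and limma adjusted p of 0.0691 to 0.155, and with replicates 1 and 037 averaged (limma adjusted p = 0.0709).

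Every Cpa3 value lay below its array's median, which ran from 5.98 to 6.05 over the 8 arrays. In wild type Cpa3 stood at percentiles 33.7 to 43.0 of the single-gene probe sets on its array, and in FLT3-ITD at 17.4 to 22.0. The array median, in contrast, was taken over all probe sets of the table. RMA can compress differences at such signal, and its effect on this fold was not tested. In bulk RNA, fewer cells with Cpa3 transcript and less transcript per cell cannot be told apart. FLT3-ITD replicate 1, whose correlations to the other arrays were the lowest at 0.948 to 0.960, was the highest FLT3-ITD sample for Cpa3. Without it Cpa3 differed by −1.15 ± 0.17 (SE; limma adjusted p = 0.0726).

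**Figure D1:**
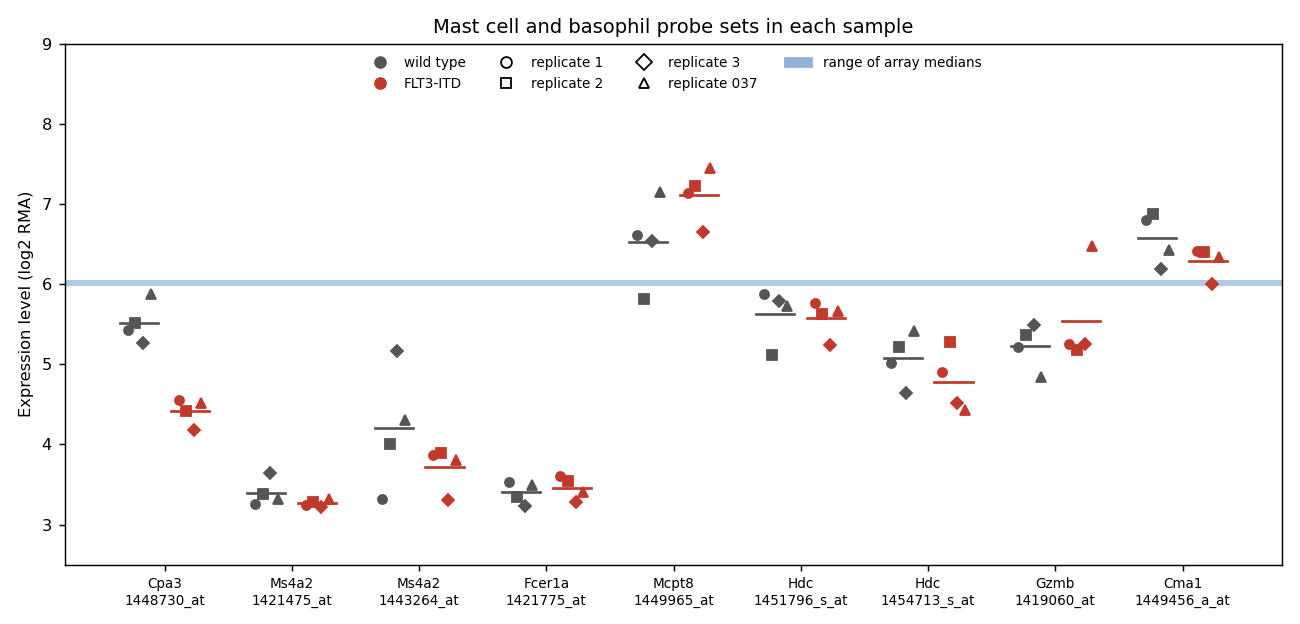
Level of each member probe set in each sample (log2 RMA), with wild type in grey, FLT3-ITD in red, a symbol for each replicate label and a line at each group mean; the blue band is the range of the array medians, 5.98 to 6.05. Cpa3 is the 1 probe set whose genotypes do not overlap, and Gzmb has a single high FLT3-ITD sample. Cpa3, Fcer1a and both probe sets of Ms4a2 and of Hdc lie below the band in every sample.

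The beta chain gene Ms4a2 was read by a pair of probe sets, both dim. Probe set 1421475_at read 3.26, 3.38, 3.64 and 3.32 in wild type replicates 1, 2, 3 and 037, and 3.24, 3.29, 3.22 and 3.32 in the FLT3-ITD samples of those labels. These levels lay at percentiles 6.51 to 11.8 of the single-gene probe sets on their arrays. The genotypes overlapped, and the difference was −0.13 ± 0.11 (SE; 95% interval −0.39 to 0.13; limma adjusted p = 0.827). The second, 1443264_at, read 3.32, 4.01, 5.17 and 4.30 in wild type and 3.86, 3.89, 3.31 and 3.81 in FLT3-ITD. Wild type spread widely here, from the lowest sample, replicate 1, to the highest, replicate 3, and the FLT3-ITD values lay within that spread or just under it. Its difference was −0.48 ± 0.35 (SE; 95% interval −1.28 to 0.32; limma adjusted p = 0.783). It was −0.16 without wild type replicate 3 and −0.78 without wild type replicate 1. Wild type replicate 3 was also the highest sample for Prg2, an eosinophil granule protein gene, at 7.75 against 4.33 to 4.90 in the other wild type samples; its part in the Ms4a2 value was not tested. As the mean over its probe sets Ms4a2 differed by −0.31 ± 0.21 (SE; limma adjusted p = 0.736).

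Fcer1a (1421775_at), the IgE-binding alpha chain, read 3.54, 3.34, 3.24 and 3.49 in wild type and 3.60, 3.55, 3.28 and 3.41 in FLT3-ITD. All 8 values lay at percentiles 7.39 to 10.4 of the single-gene probe sets on their arrays, and the genotypes overlapped almost fully. The difference was 0.06 ± 0.12 (SE; limma adjusted p = 0.936), with a 95% interval of −0.22 to 0.34. Differences of either sign within that interval are compatible with these values.

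Mcpt8 (1449965_at), the basophil granule protease, read 6.61, 5.81, 6.54 and 7.15 in wild type and 7.14, 7.23, 6.65 and 7.45 in FLT3-ITD. The wild type sample 037 reached the FLT3-ITD range, so the genotypes overlapped, while wild type replicate 2 was the one value under its array's median. The means were 6.53 ± 0.55 and 7.12 ± 0.34 (log2, SD, n = 4 each). Mcpt8 therefore read 0.59 ± 0.28 higher (SE; 95% interval −0.06 to 1.23), short of the threshold, which 0.137% of all single-gene probe sets passed as higher, with a limma adjusted p of 0.657 and an exact two-sided permutation p of 0.0857. Without wild type replicate 2 the difference was 0.35.

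Cma1 (1449456_a_at), the chymase of connective tissue mast cells, had levels of 6.80, 6.88, 6.19 and 6.42 in wild type and 6.42, 6.41, 6.01 and 6.34 in FLT3-ITD. They lay near the middle of the arrays, above the median on 7 of 8, and the genotypes overlapped. The difference was −0.28 ± 0.18 (SE; 95% interval −0.69 to 0.13; limma adjusted p = 0.757). Cma1, Mcpt8 and Gzmb all belong to the chymase locus, a cluster of serine protease genes, and their differences did not share a sign.

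Gzmb (1419060_at), granzyme B, read 5.22, 5.36, 5.49 and 4.85 in wild type and 5.26, 5.18, 5.26 and 6.48 in FLT3-ITD. The FLT3-ITD mean was set by replicate 037, while the other FLT3-ITD samples lay inside the wild type range. Gzmb differed by 0.31 ± 0.30 (SE; limma adjusted p = 0.845), a value of 0.0034 without FLT3-ITD replicate 037. In that sample the 3′ control probe set of Gapdh exceeded the 5′ one by 2.99 (log2), compared with 1.82 to 2.29 elsewhere, a measure tied to RNA integrity; its part in the Gzmb value was not tested. Gzmb is shared with T and NK cells. Of 13 T and NK cell markers with a probe set none passed, 9 were below the array median on all arrays, among them Gzma, Ncr1, Cd3e and Eomes, and 3 were above it on all 8. These 3 were the granule genes Prf1, with means of 8.68 and 8.60 in wild type and FLT3-ITD, and Nkg7, with 8.45 and 8.75, and the co-receptor gene Cd8a, with 6.33 and 6.88. Over the 13 markers the mean level was 4.86 to 4.99 in wild type and 5.05 to 5.39 in FLT3-ITD. Klrk1, an activating receptor of these cells, read 2.12 ± 0.45 higher (SE; limma adjusted p = 0.172), with FLT3-ITD replicate 037 the lowest of its genotype at 4.40.

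Hdc, which makes histamine, was below the array median on all arrays by both probe sets. Probe set 1451796_s_at read 5.87, 5.12, 5.79 and 5.73 in wild type and 5.76, 5.63, 5.24 and 5.67 in FLT3-ITD, a difference of −0.05 ± 0.19 (SE; 95% interval −0.50 to 0.39; limma adjusted p = 0.967). The values of the genotypes were interleaved. Probe set 1454713_s_at read 5.02, 5.22, 4.64 and 5.42 in wild type and 4.90, 5.28, 4.52 and 4.43 in FLT3-ITD, a difference of −0.29 ± 0.23 (SE; 95% interval −0.82 to 0.23; limma adjusted p = 0.803). The suffix of both marks probes that may match more than 1 transcript. Their mean differed by −0.17 ± 0.15 (SE; limma adjusted p = 0.801).

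Counted together, 6 of the 9 probe sets had a negative and 3 a positive difference, and 1 had an unadjusted p under 0.05, against 8.03% of all single-gene probe sets. The negative ones include both probe sets of Ms4a2 and both of Hdc, so they are not 6 separate genes. The median difference was −0.13, that of the dim Ms4a2 probe set 1421475_at, against 0.02 over all 34945. Of the 9, 2 (Mcpt8 and Cma1) exceeded the median of their array in at least 4 samples and 6 in none. With dim probe sets removed by that filter, Cpa3 would not have been tested.

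**Figure D2:**
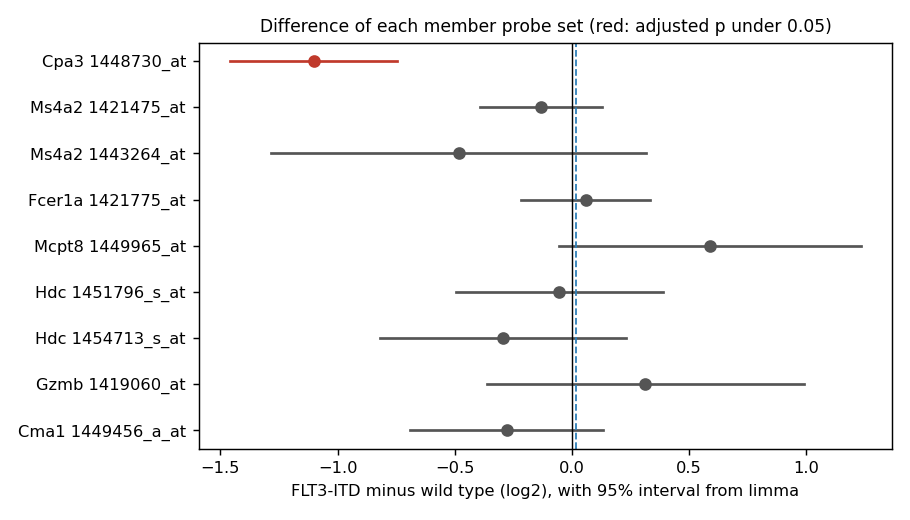
Difference between FLT3-ITD and wild type for each member probe set (log2 units, point) with its 95% interval from limma (line); the solid line marks 0 and the dashed line the median of all single-gene probe sets, 0.02. The interval of Cpa3, in red, runs from −1.46 to −0.74, and the intervals of the other 8 include 0.

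The rule for genes of like pattern applied to Mcpt8 and Cma1, the members that exceeded the array median in at least 4 samples. Likeness was the root mean square difference between profiles over the 8 arrays after subtracting each probe set's mean. For Mcpt8 the nearest were Igsf6 at 0.13, Adsl at 0.14, Hexa at 0.19, Gskip at 0.21 and Sla at 0.21 (log2), where Mcpt8 itself had an SD of 0.53 over the arrays. For Cma1, with an SD of 0.29, they were Myh9 at 0.08, Tbcd at 0.10, 9030619P08Rik at 0.12, Ndrg1 at 0.13 and Lsm1 at 0.13.

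Other genes of the IgE receptor pathway were well measured, with each gene represented by its brightest probe set on average. Of 15 listed, 13 had a probe set, all brighter than the array median in at least 4 samples, and none passed, against 0.209% of 18193 genes. Their median difference was −0.10, against 0.03 over all genes, with 5 positive and 8 negative. Fcer1g, the gamma chain, had the smallest p. It read 6.70, 7.74, 7.82 and 7.77 in wild type and 9.21, 9.14, 8.23 and 8.55 in FLT3-ITD, higher in every FLT3-ITD sample, by 1.28 ± 0.31 (SE; limma adjusted p = 0.253). This chain also serves Fc receptors of monocytes, dendritic cells and neutrophils. Lat2, an adaptor of mast cell signalling, read −0.59 ± 0.19 relative to wild type (SE; limma adjusted p = 0.450), and its genotypes did not overlap either.

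In the list of transcription factors and growth factor receptors of these lineages, which also held the cytokine genes Il4 and Il13, 17 of 18 genes had a probe set, none passed, and 8 differences were positive and 9 negative with a median of −0.01. Csf2rb, the signalling chain shared by the receptors for interleukin-3, interleukin-5 and GM-CSF, had a wild type mean of 7.39 ± 0.30 and an FLT3-ITD mean of 8.68 ± 0.52 (SD, n = 4 each). Its highest wild type value was 7.64 and its lowest FLT3-ITD value 8.13. It read 1.29 ± 0.26 higher without overlap (SE; limma adjusted p = 0.166). Bhlhe40, a transcription factor, read 0.60 ± 0.20 higher (SE; limma adjusted p = 0.457). Gata2, a factor needed for both mast cells and basophils, was named after its values were seen. It read 8.84, 8.85, 9.02 and 8.99 in wild type and 8.74, 8.16, 8.72 and 8.17 in FLT3-ITD, lower in every FLT3-ITD sample, by −0.48 ± 0.17 (SE), and did not pass (limma adjusted p = 0.498). Kit, the receptor for the mast cell growth factor and a marker of the gate, read −0.47 ± 0.17 (SE; limma adjusted p = 0.514).

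Of 21 other effectors, 18 had a probe set, 1 passed, higher in FLT3-ITD, against 0.181% of genes higher, and 10 were below the array median on all arrays. The median was −0.09, with 7 positive and 11 negative differences. Ctsg, which encodes cathepsin G, a protease of mast cells and of granulocyte progenitors, rose by 1.74 ± 0.20 (SE; limma adjusted p = 0.0165), from 8.97 to 9.37 in wild type to 10.48 to 11.42 in FLT3-ITD. Its call was lost on leaving out wild type replicate 1, 2 or 3, with limma adjusted p up to 0.0780. Other mast cell proteases did not pass. Mcpt1, Mcpt2, Mcpt4 and Tpsab1 averaged 2.96 to 4.78 in either genotype, and Tpsb2, a mast cell tryptase, averaged 6.21 and 6.23. These genes were named after their values were seen.

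**Figure D3:**
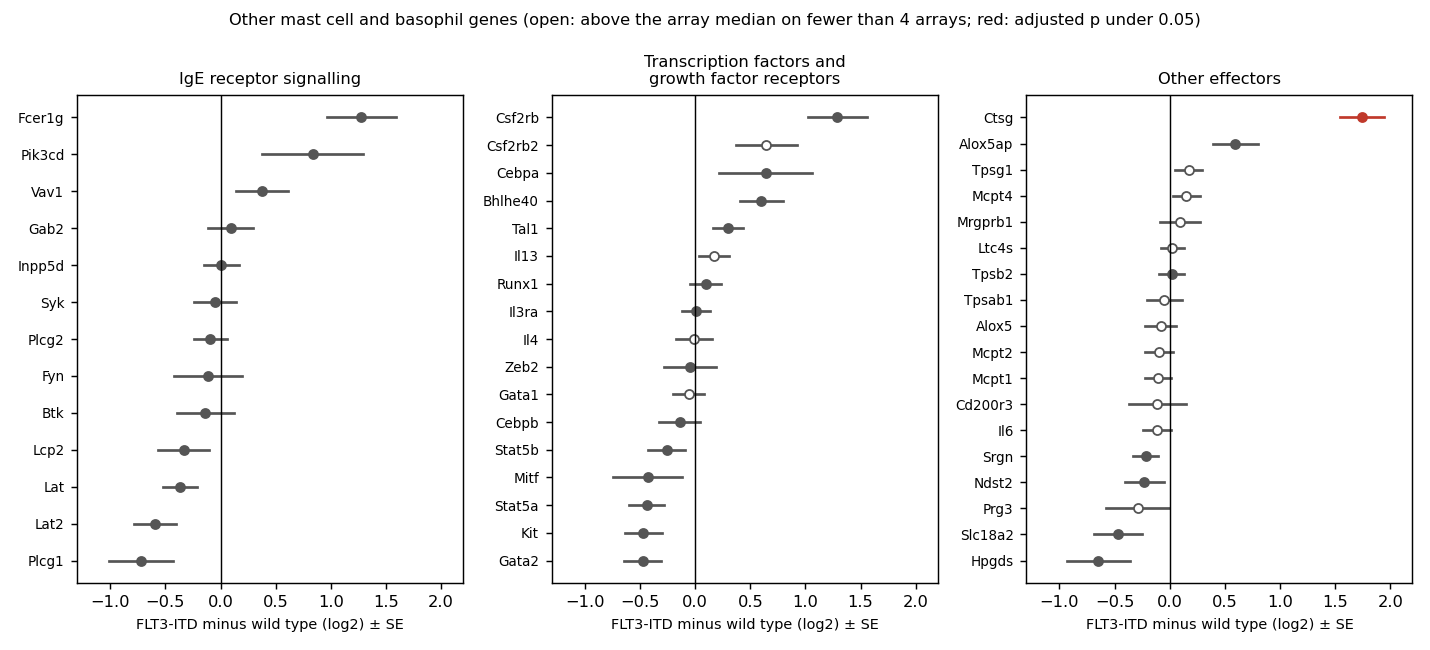
Difference between FLT3-ITD and wild type (log2 units, point, with its SE as a line) for the other mast cell and basophil genes, in 3 panels for IgE receptor signalling, transcription factors and growth factor receptors (with the cytokines Il4 and Il13), and other effectors; open points lay above the array median on fewer than 4 arrays. Ctsg, in red at 1.74, is the 1 gene past the test, and Fcer1g at 1.28 and Csf2rb at 1.29 lead the other panels without passing.

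Markers of other cells were read in the same way. Of the genes for the sorting markers, Kit had wild type and FLT3-ITD means of 9.61 and 9.14, and Cd48 rose by 1.06 ± 0.12 (SE; limma adjusted p = 0.0150; lost without any of 4 samples, wild type replicates 1 and 2 and FLT3-ITD replicates 2 and 3). Slamf1, which encodes CD150, was below the array median on all arrays. For the megakaryocyte and erythroid list the mean level was 6.96 to 7.18 in wild type and 6.41 to 6.68 in FLT3-ITD, while its median difference was −0.06. Klf1, an erythroid transcription factor, differed by −0.03, Gfi1b by 0.01 and Tfrc, the transferrin receptor, by 0.18, none past the test. Slc4a1 read −2.10 ± 0.34 (SE; limma adjusted p = 0.0665) and Car2 −1.01 ± 0.17 (SE; limma adjusted p = 0.0749). Both were lower in every FLT3-ITD sample without passing. These genes were named after their values were seen. In this list 10 differences were negative and 3 positive. Of its 13 genes 1 passed: the haemoglobin gene Hbb-b2 dropped by 2.76 in log2 units (SE 0.31; limma adjusted p = 0.0150, against 0.0275% of genes lower past the test; lost without wild type replicate 1, 2 or 3 or FLT3-ITD replicate 2). Dendritic cell markers, at 6.93 to 7.07 and 8.28 to 9.32, had 5 of 12 higher past the test, against 0.181% of genes. Of the 12 differences 9 were positive and 3 negative. Flt3, also named after its values were seen, was lower in every FLT3-ITD sample, at −1.17 ± 0.19 (SE; limma adjusted p = 0.0704). The 5 that passed were Cd74, the MHC class II genes H2-Aa, H2-Ab1 and H2-Eb1, and Irf8. One of them, Irf8, lost its call on leaving out wild type replicate 1, 2 or 3 or FLT3-ITD replicate 2. Monocyte and macrophage markers, at 6.26 to 6.85 and 7.36 to 7.94, had none of 8 past the test, with 7 positive differences and 1 negative. Ccr2 fell just short, 3.62 ± 0.53 higher (SE; limma adjusted p = 0.0508), and F13a1 read 1.60 ± 0.32 higher (SE; limma adjusted p = 0.147). Neither overlapped between genotypes. None of 5 eosinophil, 9 neutrophil or 8 B cell markers passed. Of the eosinophil markers, with 1 positive and 4 negative differences, Ccr3 read −0.56 ± 0.19 (SE, limma adjusted p = 0.487). Of the B cell markers, with 4 differences of each sign, Fcrla read 0.66 ± 0.19 higher (SE, limma adjusted p = 0.371). Ccr3 and Fcrla did not overlap between genotypes. Neutrophil markers averaged 6.48 to 7.84 in wild type and 5.38 to 7.31 in FLT3-ITD, with a median difference of −1.05; Ngp, a neutrophil granule gene, read −2.39 ± 0.68 (SE; limma adjusted p = 0.367). Eosinophil markers averaged 4.50 to 5.60 in wild type and 4.29 to 4.76 in FLT3-ITD, none above the array median on 4 arrays. The part of these cells in the Cpa3 and Ctsg differences was not tested.

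**Figure D4:**
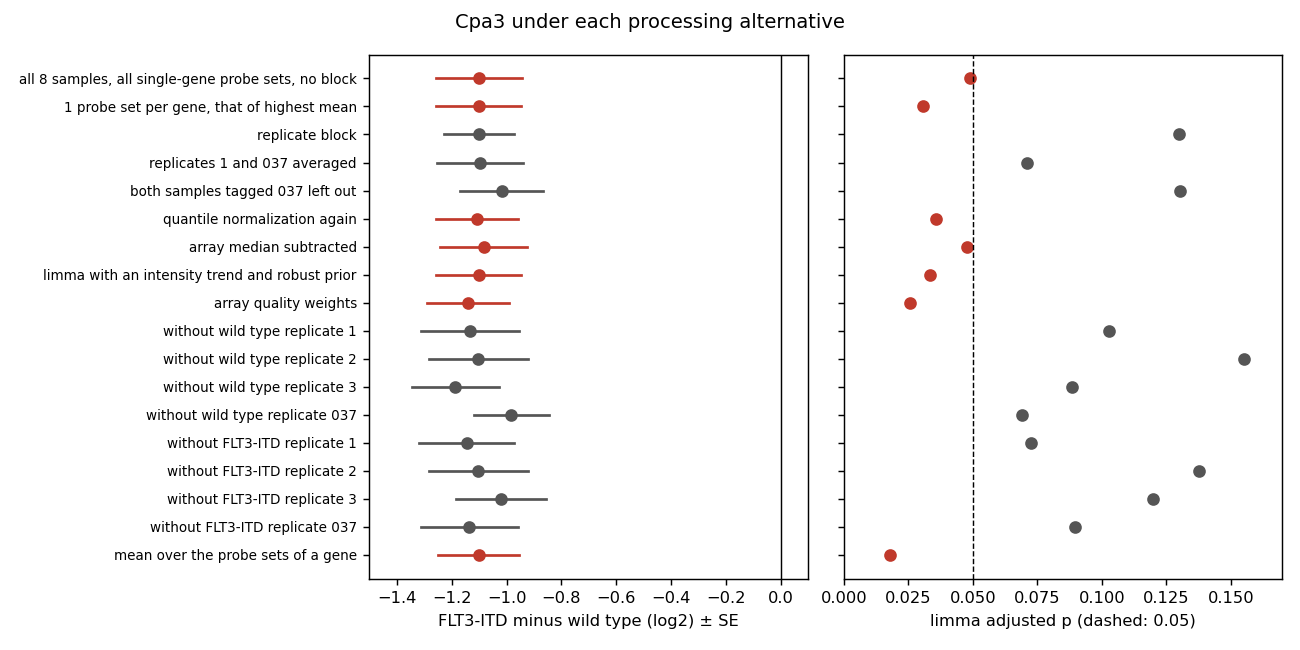
Cpa3 under each way of processing that could test it: the difference between FLT3-ITD and wild type with its SE (left, log2 units) and the limma adjusted p (right, dashed line at 0.05), with calls in red. All differences lie between −1.19 and −0.98, and every setting that leaves out a sample has an adjusted p above 0.05.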

How the data were processed

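Per the labels' protocols, Trizol-extracted RNA was amplified by a NuGEN Pico kit and biotin-labelled. The deposited table holds log2 values for each probe set, made by the authors with RMA (background correction, normalization between arrays, summary over probes) per the submitters' processing notes, which name no version. The number of arrays limits the precision. Probe sets were named from the platform annotation of 2016, with symbols updated through the Entrez ID in a table of assembly GRCm38.p6 for 34741 of 34945 probe sets with 1 gene; 932 with several genes, 9160 with none and 64 controls were left out.

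FLT3-ITD was compared with wild type by limma 3.58.1 in R 4.3.3 with no covariate, over all 34945 probe sets, dim ones included. Calls needed an adjusted p (Benjamini-Hochberg) under 0.05, and single values were also compared by exact two-sided permutation, without adjustment. Differences are FLT3-ITD minus wild type with SE from the fit, and sample values are given in the order of labels 1, 2, 3, 037. The fit was also run on simulated data with independent samples and the same spread in both genotypes. Such data do not cover repeated or paired samples, and no result here rests on them. Promoter windows are from RefSeq, GRCm38.p6; all 8 members matched. The members and gene lists were chosen with earlier results of these data known. The rule for named genes took every member probe set, and from each list up to 4 genes that passed, otherwise the 2 of smallest p. It also took the 5 probe sets nearest in pattern to members brighter than the array median in at least 4 samples. Lists of other cell types are given mainly by counts, so Klrd1, Ltf, Epx and Cd22, which the rule picked, are not described. Genes named outside the rule were chosen with their values known. Among them are Irf8, Prg2, Kit, Slamf1, Prf1, Nkg7, Cd8a, Gzma, Ncr1, Cd3e and Eomes. Alternatives covered the filter on dim probe sets, the unit of the test, the replicate numbers, the tag 037, normalization, the variance model and leaving out each sample. Figures were drawn with matplotlib 3.10.9.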

Additional observations from a re-analysis of the deposited data

Results flagged for a closer look

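In 18 groups of 4 values, 1 for each member probe set and genotype, 2 held a sample set apart from its 3 partners, which happens by chance in about 1 of 20 such groups. FLT3-ITD replicate 037 read 6.48 for Gzmb, against 5.18 to 5.26 in the other FLT3-ITD samples. FLT3-ITD replicate 3 read 3.31 for Ms4a2 probe set 1443264_at, against 3.81 to 3.89 in the others.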

How the results depend on the processing

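The number of member probe sets past the test, 1 with all samples, was 0 with either filter on dim probe sets (brighter than the array median in at least 4 samples, or in at least 1), where Cpa3 is not among those tested. It was also 0 with the replicate block, with replicates 1 and 037 averaged, with both samples tagged 037 left out, and on leaving out each sample in turn (0 to 0). Cpa3 kept its sign in all 17 alternatives that tested it and passed in 6, with limma adjusted p of 0.0178 to 0.155. Under the replicate block the limma adjusted p was 0.130 for Cpa3, 0.118 for Ctsg and 0.116 for Cd48, all past the threshold without it. The Cpa3 difference was −1.10 either way, with an SE of 0.13 under the block and 0.16 without it. Whether the replicate numbers pair the samples was not settled by the check used. Correlations of deviations between samples of the same label were low, at 0.030 to 0.076, yet for 3 of the 4 labels these samples were each other's best match. The block moved the calls over all probe sets from 55 to 26. Those calls numbered 83 with replicates 1 and 037 averaged, 85 with the filter of at least 1 sample, 85 for means over a gene's probe sets, 106 with array quality weights, and 24 to 65 on leaving out single samples. Hdc probe set 1451796_s_at ran from −0.22 to 0.061 on leaving out single samples, and Gzmb was −0.12 without the samples tagged 037. On leaving out single samples Fcer1a ran from 0.0037 to 0.12, Cma1 from −0.41 to −0.18, Ms4a2 1421475_at from −0.18 to −0.050 and Hdc 1454713_s_at from −0.46 to −0.18. Companion genes past the test, 8 with all samples, numbered 4 to 10 on leaving out single samples: 4 when wild type replicate 1 was removed, and 5 when FLT3-ITD replicate 2 or either of wild type replicates 2 and 3 was. The array median stood in for a detection limit.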
